A study of Mus musculus with 72 samples.

Results

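Neurofilament, intermediate filament and microtubule-associated protein genes were followed in 72 RNA-seq libraries of mouse pup brain. The members were 9 genes, taken by symbol from the 55401 genes of the count table, and each symbol matched 1 gene: Nefl, Nefm, Nefh, Ina, Vim, Nes, Map1b, Map2 and Mapt. All 9 were counted in every library and passed the filter on low counts in every comparison.

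Each library came from the right hemisphere of 1 C57Bl/6 pup (C57Bl/6NTac in the study's methods), while the series text also names the cortex. In the PND1 window the dam carried an osmotic minipump with morphine, an opioid agonist, at 10 mg/kg/day or with saline, and the pup was dissected on postnatal day 1, 6 h after it was found. In the PND14 window the pup itself received injections, 2 a day, of 10 mg/kg morphine or of saline, and its brain was taken at postnatal day 14, 6 h past the final dose, although the series text gives the following day. The 3-Tri window joined both exposures, with pups raised by foster dams and dissected at the later age. Groups are named by window, drug and the gender code of the label, F or M. PND1 held 4 morphine F, 6 morphine M, 7 saline F and 7 saline M libraries, and each of the other 8 groups held 6. Litters are not given in the labels, so p-values measure the spread between these libraries, which need not be independent.

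Intermediate filaments are rope-like polymers that give cells mechanical strength. In neurons they are built from the light, medium and heavy neurofilament proteins together with alpha-internexin, and they fill growing axons and set their calibre. Neural progenitors use vimentin and nestin instead. Microtubule-associated proteins bind and stabilise microtubules, MAP2 mainly in dendrites, tau mainly in axons, and MAP1B in growing neurites.

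On the mm10 genome, Nefl (light neurofilament) lies at chr14:68083863-68089095 on the plus strand and Nefm (medium neurofilament) at chr14:68082590-68124846 on the minus strand. Their annotated exons overlap by 1108 bp on opposite strands. Strand use in counting is not given, so it is not known whether reads from that stretch were assigned to the right gene. Nefh (heavy neurofilament) lies at chr11:4938754-4948064 on the minus strand, Ina (alpha-internexin) at chr19:47014698-47025327, Vim (vimentin) at chr2:13573927-13582826 and Nes (nestin) at chr3:87971078-87980451, the last 3 on the plus strand. Map1b lies at chr13:99421446-99516540 on the minus strand, Map2 at chr1:66175273-66442583 and Mapt (tau) at chr11:104231390-104332090, both on the plus strand. Exons of Ina overlap those of Nt5c2 by 456 bp and exons of Map2 overlap those of Gm10558 by 124 bp, again on the opposite strand. Summed exon length ran from 3.24 kb for Ina to 16.45 kb for Map2, so levels are compared between genes only as CPM (counts scaled to a common library size) per kb of exon. These lengths include the overlaps. If reads there were dropped, CPM per kb is too low for the genes concerned, Nefl above all, and ratios and ranks between genes would move.

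Promoter sequence is shown for 4 members, Ina, Nes, Map1b and Map2, which were all lower in saline pups at PND14 than at PND1. Each stretch is 150 bases, written 5′ to 3′ on the strand of the gene and ending before its first annotated exon, from RefSeq on GRCm38.p6. Capitals mark matches on either strand to the GC box GGGCGG, the TATA box TATAAA and the CCAAT box CCAAT. The windows are chr19:47014531-47014680 for Ina, chr3:87970928-87971077 for Nes, chr13:99516603-99516752 for Map1b and chr1:66175123-66175272 for Map2.
Ina: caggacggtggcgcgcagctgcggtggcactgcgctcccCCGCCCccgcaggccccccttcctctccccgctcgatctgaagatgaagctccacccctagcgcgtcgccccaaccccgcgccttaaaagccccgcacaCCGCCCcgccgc
Nes: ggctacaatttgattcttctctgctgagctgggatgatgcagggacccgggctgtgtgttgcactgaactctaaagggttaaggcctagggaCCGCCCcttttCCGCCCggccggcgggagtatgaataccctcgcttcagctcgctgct
Map1b: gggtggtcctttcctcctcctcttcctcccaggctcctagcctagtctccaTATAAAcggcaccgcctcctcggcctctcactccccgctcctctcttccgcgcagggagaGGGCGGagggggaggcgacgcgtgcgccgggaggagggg
Map2: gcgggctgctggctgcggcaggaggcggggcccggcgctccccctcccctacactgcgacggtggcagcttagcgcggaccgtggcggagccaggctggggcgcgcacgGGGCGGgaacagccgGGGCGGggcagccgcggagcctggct
The GC box was found 2 times in the windows of Ina, Nes and Map2 and 1 time in that of Map1b, which also held 1 TATA box. No window held CCAAT. Over windows of the same length at 32851 promoters, 28.6% held the GC box, 7.6% the TATA box and 24.5% CCAAT. GC content was 80.0% for Map2, 74.0% for Ina, 68.7% for Map1b and 58.0% for Nes. These are matches of letters and no measure of factor binding. The promoters of Nefl, Nefm, Nefh, Vim and Mapt are not shown.

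Total counts were 20742862 to 27333125 per PND1 library, 4407544 to 21404819 per PND14 library and 3113919 to 19938980 per 3-Tri library, and the shallowest were replicate 4 of PND14 morphine F and replicate 1 of 3-Tri saline M. Xist and Ddx3y went against the gender label in 4 of 24 PND1 libraries, 0 of 24 PND14 libraries and 12 of 24 3-Tri libraries. Comparisons by gender code, above all in 3-Tri, are therefore comparisons of labels, and results over both codes are given first. Summed markers of hindbrain and spinal cord (15 genes, mostly Hox genes) ran from 1.28 to 122.4 CPM in PND1 morphine libraries and from 0.159 to 65.9 CPM in PND1 saline libraries, but reached at most 2.22 CPM at PND14 and 1.45 CPM in 3-Tri. They exceeded 20 CPM in 11 PND1 libraries: 1 of 4 morphine F, 4 of 6 morphine M, 3 of 7 saline F and 3 of 7 saline M. Members' calls under morphine at PND1 and the changes with age are also given without those libraries, and other values at PND1 use all 24.

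**Figure D1:**
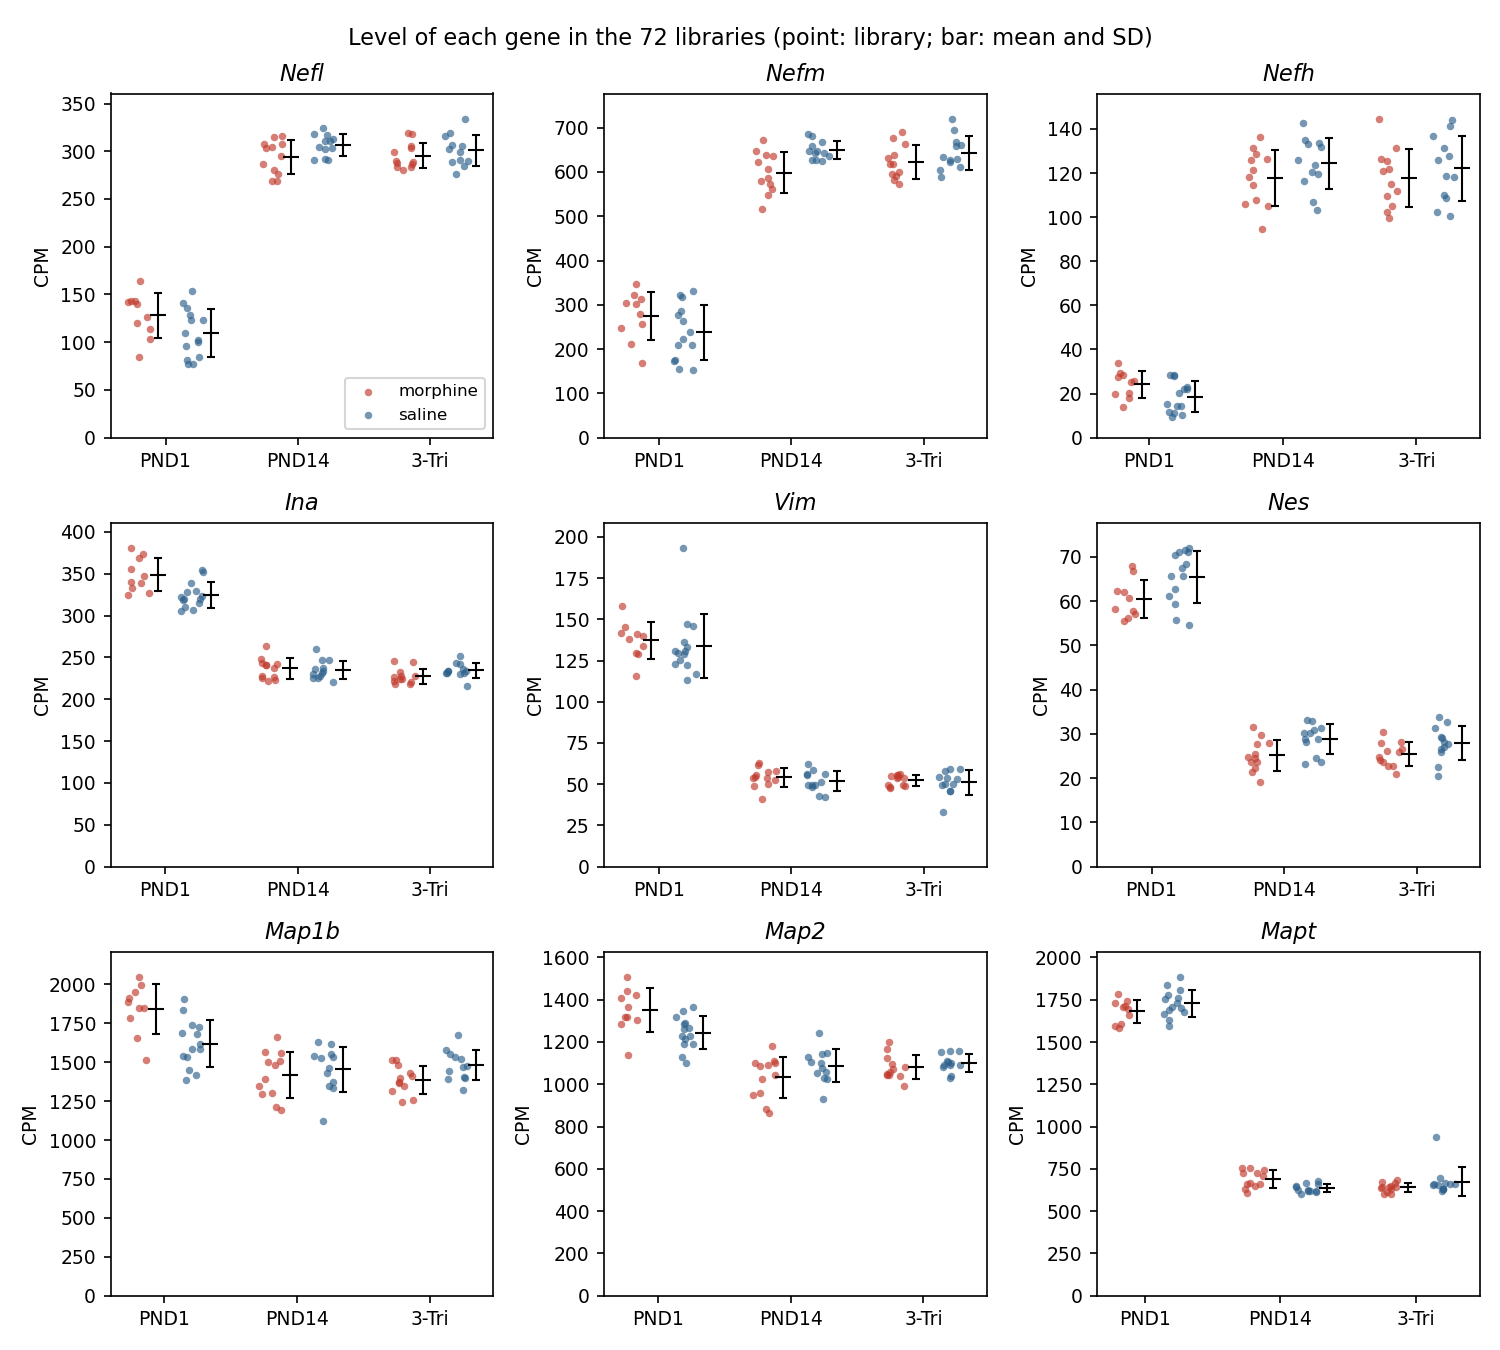
CPM of each of the 9 genes (y axis, from 0) in each of the 72 libraries, by window (x axis) and drug, with morphine left of saline; points are libraries and bars are mean and SD. The 3 neurofilament genes were higher and Vim, Nes and Mapt lower in the PND14 and 3-Tri windows than at PND1, while morphine and saline libraries overlapped for every gene within each window.

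The first comparison followed these genes with age in saline pups, from postnatal day 1 to day 14. The neurofilament genes rose and the progenitor filament genes and tau fell, all by more than 2-fold, while Ina fell less and Map1b and Map2 fell slightly. All 9 members were called at an adjusted p under 0.05 (edgeR quasi-likelihood test, Benjamini-Hochberg), 3 higher and 6 lower at PND14. That share is close to the background, since 84.9% of the 22010 genes tested were called in this comparison, so the sizes and directions matter more than the count. Age was not separated from the schedule, handling or processing of the windows, since each window was a cohort of its own. The dam carried a saline pump at PND1, while the pup itself was injected with saline at PND14. In bulk tissue, fewer cells of a type and less RNA per cell cannot be told apart.

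Nefh, the subunit added last as axons mature, moved furthest. It had 103 to 143 CPM (median 125) in the 12 saline PND14 libraries, against 9.34 to 28.6 CPM (median 17.9) in the 14 saline PND1 libraries. The lowest PND14 library lay far above the highest PND1 library. Nefh averaged 124 ± 11.7 CPM at PND14 and 18.5 ± 6.98 CPM at PND1 (SD), a log2FC of 2.78 ± 0.11 (SE) or 6.88-fold, with an adjusted p of 1.02e-34 (edgeR). Nefl, the subunit on which the other neurofilament proteins assemble, had 291 to 324 CPM (median 307) at PND14, against 76.7 to 154 CPM (median 106) at PND1. Nefm, the medium subunit, had 625.3 to 686 CPM (median 645) at PND14, against 154 to 332 CPM (median 231) at PND1. Neither gene's groups overlapped. The log2FC was 1.52 ± 0.07 for Nefl (adjusted p = 6.87e-32) and 1.48 ± 0.08 for Nefm (adjusted p = 1.65e-27). Beside this, summed markers of neurons had a median of 4264 CPM at PND14 and 1055 CPM at PND1 in saline libraries, with 5 of 6 called higher and 1 lower (Slc17a6, −0.24). Their part in the change of the neuronal filament genes was not tested.

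Ina, the neuronal filament protein made earlier than the neurofilament triplet, went the other way. It had 221 to 260 CPM (median 232) at PND14, against 306 to 354 CPM (median 321) at PND1, with no overlap. The log2FC was −0.43 ± 0.03 (adjusted p = 7.64e-25, edgeR). Per kb of exon, the mean level of Ina was 0.80 times that of Nefl at PND14, against 3.09 times at PND1. The same ratio of Nefh to Nefl was 0.343 at PND14, against 0.143 at PND1. That of Nefm to Nefl was 1.24 at PND14, against 1.27 at PND1, so the medium and light subunits kept nearly the same proportion of transcripts.

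Vim and Nes, filament genes of radial glia and progenitors that endothelial cells also express, both fell. Vim had 42.0 to 62.1 CPM (median 50.5) at PND14, against 113 to 193 CPM (median 129.9) at PND1. Nes had 23.3 to 33.2 CPM (median 29.5) at PND14, against 54.6 to 71.98 CPM (median 66.6) at PND1. The age groups did not overlap for either gene. The log2FC was −1.34 ± 0.06 for Vim (adjusted p = 6.10e-33) and −1.15 ± 0.06 for Nes (adjusted p = 1.33e-28, edgeR). Beside this, summed markers of radial glia and progenitors had a median of 183 CPM at PND14 and 488 CPM at PND1 in saline libraries, with 0 of 7 called higher and 5 of 7 lower, and markers of endothelium had 5 of 6 called higher and 1 lower. Their part in the change of Vim and Nes was not tested.

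Among the microtubule-associated members, only Mapt changed by a large amount. Mapt had 602 to 679 CPM (median 626) at PND14, against 1593 to 1884 CPM (median 1719.9) at PND1. The groups were far apart, with a log2FC of −1.41 ± 0.04 (adjusted p = 3.21e-44, edgeR) and a level 2.66-fold lower at PND14. Map2 had 932 to 1241 CPM (median 1088) at PND14, against 1100.2 to 1367 CPM (median 1245) at PND1. Map1b had 1122 to 1632 CPM (median 1493) at PND14, against 1385 to 1903 CPM (median 1600.2) at PND1. For these the groups overlapped, and the log2FC was −0.16 ± 0.04 for Map2 (adjusted p = 0.000123) and −0.12 ± 0.05 for Map1b (adjusted p = 0.0244). The call of Map1b was lost without the saline PND14 libraries whose sample IDs open with 4425 (log2FC −0.07, adjusted p = 0.263).

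Set out by CPM per kb, Mapt stood first in saline pups at PND1, at 229.8 ± 10.6 (SD, n = 14). Map1b (102 ± 9.64), Ina (100.2 ± 4.65), Map2 (75.6 ± 4.69), Nefm (41.2 ± 10.8), Nefl (32.4 ± 7.44), Vim (28.2 ± 4.12), Nes (10.2 ± 0.92) and Nefh (4.63 ± 1.75) followed. Mean ± SD ranges of neighbours overlapped for Map1b and Ina, Nefm and Nefl, and Nefl and Vim. At PND14 Nefm stood first, at 112 ± 3.52 (n = 12). Map1b (91.9 ± 9.14), Nefl (90.7 ± 3.28), Mapt (84.3 ± 3.14), Ina (72.5 ± 3.50), Map2 (66.1 ± 4.72), Nefh (31.1 ± 2.94), Vim (10.9 ± 1.29) and Nes (4.49 ± 0.53) followed. Here the ranges overlapped for Map1b and Nefl, Nefl and Mapt, and Ina and Map2. Both orders rest on full exon lengths, overlaps with other genes included.

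**Figure D2:**
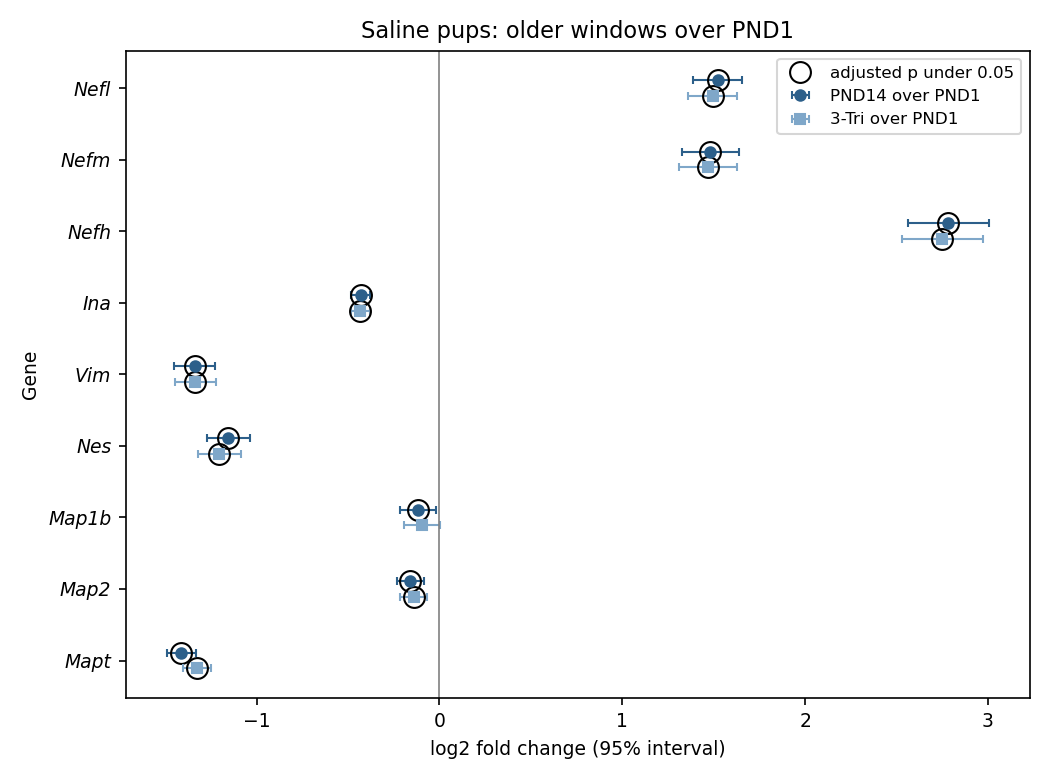
Log2FC of the 9 genes (x axis) in saline pups, PND14 over PND1 and 3-Tri over PND1, with 95% intervals and a ring round each call at an adjusted p under 0.05. The neurofilament genes lie between 1.47 and 2.78, Vim, Nes and Mapt between −1.41 and −1.15, and only Map1b in 3-Tri has no ring.

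The saline 3-Tri pups, of the same age as the PND14 pups, shared the PND1 saline libraries with the comparison above, so the pair of comparisons is not independent. There 8 of 9 members were called, beside 85.1% of all genes. Nefh had a log2FC of 2.75 ± 0.11 and Mapt of −1.33 ± 0.04, and Map1b was the member not called (−0.09 ± 0.05, adjusted p = 0.0732, edgeR; DESeq2 called all 9). The call of Map2 (−0.14 ± 0.04) was lost without ID number 4431 (−0.11, adjusted p = 0.0568). Between the saline groups of 3-Tri and PND14, 0 of 9 members were called by edgeR and 0 by DESeq2, with 1 at an unadjusted p under 0.05 (Mapt, 0.09 ± 0.04). For Mapt, replicate 1 of 3-Tri saline M, the shallowest library, had 940 CPM, and the next library of its group had 664 CPM. In that comparison 0% of all genes were called by edgeR, with 723 at an unadjusted p under 0.05 and 4 called by DESeq2. Every member's saline levels overlapped between the 3-Tri and PND14 windows.

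In morphine pups, PND14 against PND1 gave 9 of 9 members called, beside 83.5% of all genes. Nefh had 94.5 to 136 CPM (median 119.6) in the 12 morphine PND14 libraries, against 13.9 to 34.0 CPM (median 25.5) in the 10 morphine PND1 libraries, a log2FC of 2.39 ± 0.13. Mapt had 604 to 753 CPM (median 687) at PND14, against 1583 to 1785 CPM (median 1702) at PND1, 2.38-fold lower. Neither gene's age groups overlapped. Map1b (−0.33 ± 0.05) and Map2 (−0.34 ± 0.04) fell with overlap. Without the PND1 libraries high in hindbrain markers, Nefh was at 2.61 and all 9 members were still called. In saline 3-Tri against PND1 the same 8 members were called without them.

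The second question was whether morphine moved these genes within each window. At PND1, over both gender codes, Map1b and Ina rose and no member fell. These were 2 of 9 members, beside 16.8% of the 21714 genes tested. DESeq2 called 3 of the 9 members, and 3922 genes in all. Map1b, which binds microtubules in growing axons, had 1514 to 2048 CPM (median 1867) in the 10 morphine libraries, against 1385 to 1903 CPM (median 1600.2) in the 14 saline libraries. The groups overlapped, and 4 of 10 morphine libraries lay above every saline library. The log2FC was 0.19 ± 0.05, a 1.14-fold difference, with an adjusted p of 0.0159 (edgeR). The call held when any 1 PND1 library was left out (log2FC 0.17 to 0.21), but not without the 11 libraries high in hindbrain markers (0.18 ± 0.06, adjusted p = 0.0726).

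Ina had 325 to 381 CPM (median 344) in morphine PND1 libraries, against 306 to 354 CPM (median 321) in saline libraries. Here too 4 of 10 morphine libraries lay above every saline library, and the log2FC was 0.10 ± 0.03 (adjusted p = 0.0271, edgeR). This call was lost without replicate 3 or 4 of morphine F, replicate 8 of morphine M, replicate 5 of saline F, or replicate 9, 11 or 12 of saline M, each left out alone, with a log2FC of 0.08 to 0.10 and an adjusted p of 0.052 to 0.0933. It was also lost without the libraries against their gender label (0.08, adjusted p = 0.118) and without those high in hindbrain markers (0.06, adjusted p = 0.288). Map2 had 1137 to 1507 CPM (median 1343) in morphine libraries, against 1100.2 to 1367 CPM (median 1245) in saline libraries, with a log2FC of 0.11 ± 0.04 and an adjusted p of 0.0506, just outside the threshold, and 0.12 ± 0.04 (adjusted p = 0.0837) without the libraries high in hindbrain markers.

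Beside these changes at PND1, over both codes, 2 of 6 neuron markers were called higher (Snap25 at 0.17, Syt1 at 0.12) and 1 lower (Slc17a7 at −0.27). The summed neuron markers ran from 1046.8 to 1187 CPM in morphine libraries and from 993.4 to 1138 CPM in saline libraries. Of the astrocyte markers 1 of 5 was higher, and 1 of 6 endothelial markers and 1 of 5 markers of pericytes and meninges were lower. Of the 15 hindbrain and spinal cord markers 0 were called by edgeR, with 0 at an unadjusted p under 0.05. In code M, where 14.4% of all genes were called, 3 of 6 neuron markers were higher and 1 lower. There 3 of 15 hindbrain and spinal cord markers were higher. Calls in code M also took in 1 of 5 astrocyte, 1 of 6 endothelial, 1 of 5 oligodendrocyte and 2 of 5 pericyte and meninges markers. The part of these lists in the levels of the members was not tested.

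The neurofilament triplet varied widely among PND1 pups. Nefh had 13.9 to 34.0 CPM (median 25.5) in morphine libraries, against 9.34 to 28.6 CPM (median 17.9) in saline libraries, with only 2 of 10 morphine libraries above every saline one. Its log2FC was 0.33 ± 0.18 and its adjusted p 0.212 (edgeR). The coefficient of variation of Nefh was 25% in morphine and 37.7% in saline PND1 libraries, and 10.8% in morphine and 9.44% in saline PND14 libraries. For Nefl it was 18.1% in morphine and 23.0% in saline libraries at PND1, and 5.94% in morphine and 3.62% in saline libraries at PND14.

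Part of that spread went with the hindbrain and spinal cord markers. After the group means were removed, log2 CPM of Nefh and the marker mean correlated across the 24 PND1 libraries with a Pearson r of 0.792 (adjusted p = 0.00024, permutation test) and a Spearman rho of 0.774 (adjusted p = 0.000827). Without the pair of libraries farthest from the median, r was 0.719. The relation also passed in 3-Tri, where the markers were at most 1.45 CPM (r = 0.573, adjusted p = 0.0174, rho = 0.584, and r = 0.606 without the 2 farthest libraries). At PND14 it did not pass (r = 0.319, adjusted p = 0.147, rho = 0.307). With the marker mean as a covariate the log2FC of Nefh was 0.15 ± 0.12 (adjusted p = 0.425), while without the 11 high libraries it was 0.44 ± 0.19 (adjusted p = 0.132). The age change did not rest on those libraries. Without them, saline PND14 against PND1 gave a log2FC of 3.10 for Nefh, 1.70 for Nefm and 1.68 for Nefl, and all 9 members were still called.

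**Figure D3:**
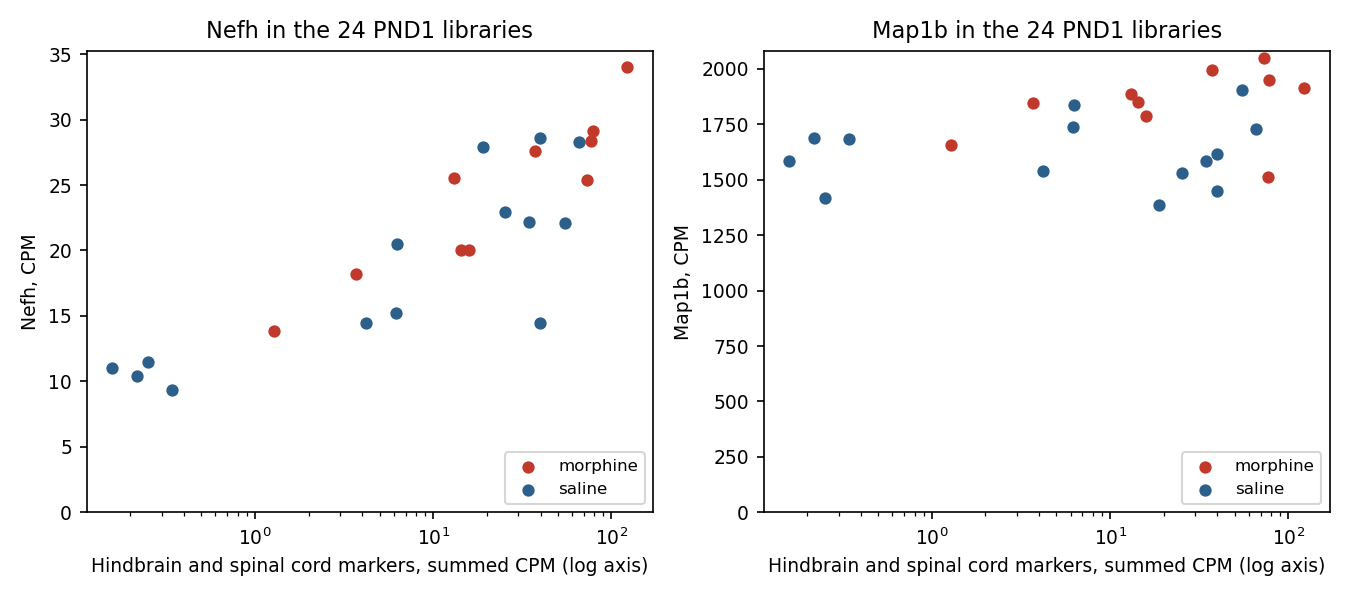
CPM of Nefh (left) and Map1b (right) on the y axis, from 0, against the summed CPM of the 15 hindbrain and spinal cord markers (x axis, log scale) in the 24 PND1 libraries, 10 morphine and 14 saline. Nefh was lowest, at 9.34 CPM, in a saline library with a marker sum under 1 CPM, and highest, at 34.0 CPM, in the morphine library with the highest sum, 122.4 CPM.

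By gender code at PND1, 1 of 9 members was called in code M and 0 of 9 in code F. Beside this, 14.4% of all genes were called in code M. In code F 0% were called by edgeR, with 2547 at an unadjusted p under 0.05 and 138 called by DESeq2. In code F 2 members, Ina and Map1b, had an unadjusted p under 0.05 and DESeq2 called 0. The member called in code M was Nes, with 55.5 to 62.3 CPM (median 58.9) in 6 morphine M libraries, against 54.6 to 71.98 CPM (median 70.4) in 7 saline M libraries. The groups overlapped only through saline replicate 14, the lowest of all, and the other 6 saline libraries had at least 65.7 CPM. The log2FC was −0.20 ± 0.06 (adjusted p = 0.0294, edgeR). Nes lost its call when replicate 9 or 10 of morphine M, or replicate 10, 11 or 13 of saline M, was left out alone, with a log2FC of −0.20 to −0.18 and an adjusted p of 0.05 to 0.073. It also lost it without the libraries high in hindbrain markers (−0.17, adjusted p = 0.152).

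The number of members called in code M moved from 0 to 3 as single libraries were left out. Without replicate 5 of morphine M there were 3 (Nes, Map1b and Map2), and without replicate 8 of saline M there were 2 (Nes and Map1b). Without the libraries against their gender label there were also 3, Nes, Map1b and Map2. In code F the log2FC of Nes was −0.01 ± 0.07 (adjusted p = 0.963). The difference between codes in the morphine effect was tested directly, and 0 of 9 members were called by edgeR or DESeq2, with 0 at an unadjusted p under 0.05, beside 0% of all genes, with 1187 at an unadjusted p under 0.05 and 0 called by DESeq2.

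Log2FC at PND1 followed the GC content of genes across the table, with r = −0.433 over 21666 genes, which are not independent replicates. Members with high GC content were Nefh (58.4%), Nefm (57.8%), Ina and Nes (55.5% each), against a median of 49.4% over genes, while Map1b (47.6%) and Map2 (47.8%) lay below it. After correction for GC content and length, Ina (0.16 ± 0.03, adjusted p = 0.0016) and Map1b (0.13 ± 0.04, adjusted p = 0.0295) were still called over both codes. The log2FC of Nes in code M was −0.12 ± 0.06 after this correction, with an adjusted p of 0.238.

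**Figure D4:**
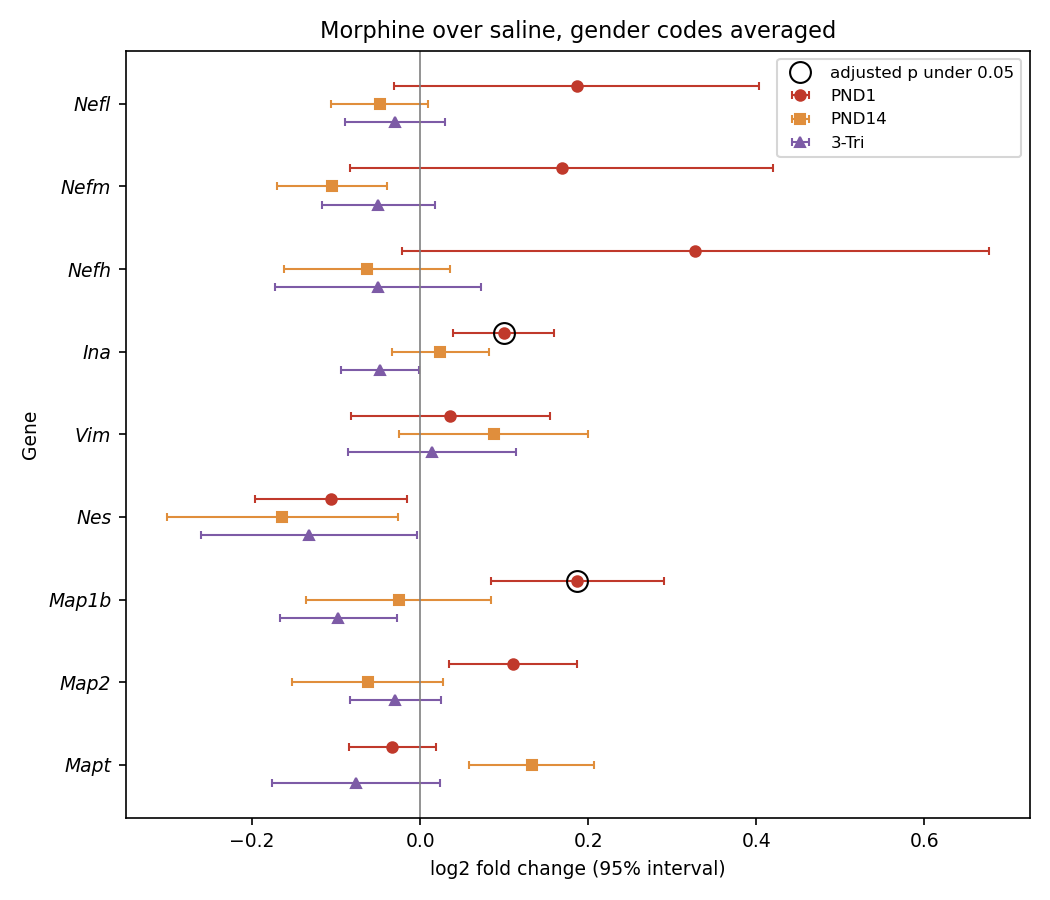
Log2FC of morphine over saline for the 9 genes (x axis), both gender codes averaged, in each window, with 95% intervals and a ring round each call at an adjusted p under 0.05. Only Ina (0.10) and Map1b (0.19) at PND1 carry a ring, and the widest intervals are those of the 3 neurofilament genes at PND1.

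At PND14, over both codes, 0 of 9 members were called by edgeR, beside 1.69% of the 19636 genes tested. At an unadjusted p under 0.05 there were 3 members, beside 3150 of all genes tested. DESeq2 called 2 of the 9, Mapt and Nefm, and 657 genes in all. Mapt had 604 to 753 CPM (median 687) in the 12 morphine libraries, against 602 to 679 CPM (median 626) in the 12 saline libraries. The groups overlapped, and 6 of 12 morphine libraries lay above every saline library. Its log2FC was 0.13 ± 0.04 with an adjusted p of 0.0677 (edgeR), against 0.0202 by DESeq2. Nefm had 517 to 671 CPM (median 596) in morphine libraries, against 625.3 to 686 CPM (median 645) in saline libraries, and 8 of 12 morphine libraries lay below every saline library. Its log2FC was −0.10 ± 0.03 with an adjusted p of 0.105 (edgeR), against 0.0392 by DESeq2. Nes, the remaining member with an unadjusted p under 0.05, had 19.0 to 31.6 CPM (median 24.7) in morphine libraries, against 23.3 to 33.2 CPM (median 29.5) in saline libraries (log2FC −0.16 ± 0.07, adjusted p = 0.238).

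No number that opens the PND14 or 3-Tri sample IDs occurs in both drug groups, so drug and ID number cannot be told apart there, and what the number stands for is not stated. With the ID number as a random effect, limma called Mapt (adjusted p = 0.0333) and Nefm (adjusted p = 0.0468). Since no number spans both drugs, that fit cannot separate number from drug either, and no conclusion is drawn from its calls. Without ID number 4422, edgeR called Mapt. Of the 12 alternatives run for this comparison, 8 kept the count of 0 members, among them those without ID number 4423, 4424 or 4425. Beside these values, markers of oligodendrocytes fell under morphine at PND14, with 3 of 5 called, and their sum had a median of 3414 CPM in morphine and 4192 CPM in saline libraries. Of the microglia markers 1 of 4 was called lower (Cx3cr1, −0.13). Markers of pericytes and meninges reached 999.6 CPM in 1 morphine F library and 693.8 CPM in 1 morphine M library, against at most 248 CPM in saline libraries. No list's part in the levels of the members was tested.

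By code at PND14, 0 of 9 members were called in code F, with 2 at an unadjusted p under 0.05 and 0 by DESeq2, and 0 of 9 in code M, with 4 at an unadjusted p under 0.05 and 1 by DESeq2 (Nefm). Of all genes, edgeR called 0% in code F, with 2054 at an unadjusted p under 0.05 and 22 by DESeq2. In code M edgeR called 0.28%, with 1825 at an unadjusted p under 0.05 and 203 by DESeq2. Nefh had 94.5 to 129 CPM (median 110.1) in the 6 morphine M libraries, against 116 to 143 CPM (median 128) in the 6 saline M libraries, and 4 of 6 morphine libraries lay below every saline library. Its log2FC was −0.19 ± 0.07 in code M (adjusted p = 0.344) and 0.07 ± 0.07 in code F (adjusted p = 0.778). For the difference between codes in the morphine effect, 0 of 9 members were called by edgeR and 0 by DESeq2, with 1 at an unadjusted p under 0.05, beside 0% of all genes, with 676 at an unadjusted p under 0.05 and 0 called by DESeq2.

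In 3-Tri, 0 of 9 members were called over both codes, in code F or in code M, by edgeR or by DESeq2, with 1 member at an unadjusted p under 0.05 in each. Of the 19730 genes tested, edgeR called 0% in each of the 3 comparisons, with 963 over both codes, 476 in code F and 982 in code M at an unadjusted p under 0.05, and DESeq2 called 0 over both codes, 0 in code F and 0 in code M. Map1b had 1245 to 1513 CPM (median 1387) in the 12 morphine libraries, against 1324 to 1677 CPM (median 1474) in the 12 saline libraries. The groups overlapped, and the log2FC was −0.10 ± 0.04 (adjusted p = 0.97). Mapt had 601 to 684 CPM (median 641) in morphine libraries, against 617 to 940.3 CPM (median 656) in saline libraries, where the highest value came from the shallow replicate 1 of saline M. The 95% intervals of the log2FC over both codes ran from −0.26 at the lowest, for Nes, to 0.11 at the highest, for Vim.

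Code F against code M gave 0 of 9 members in each window by edgeR and 0 by DESeq2, with 0 at an unadjusted p under 0.05 in each. Beside this, edgeR called 4.73% of all genes at PND1, 0.107% at PND14 and 0% in 3-Tri, where 455 had an unadjusted p under 0.05 and DESeq2 called 2. The difference between codes in the morphine effect in 3-Tri also gave 0 of 9 by edgeR or DESeq2, with 0 at an unadjusted p under 0.05, beside 0% of all genes, with 457 at an unadjusted p under 0.05 and 0 called by DESeq2. Since 12 of the 24 labels of 3-Tri went against the sex genes, the comparisons by code within 3-Tri do not compare the sexes.

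The third question was whether the morphine effect differed between windows. That of PND14 minus that of PND1 was called for 3 of 9 members, beside 13.3% of all genes. It was −0.22 ± 0.07 for Map1b (adjusted p = 0.0407), whose own log2FC was −0.03 ± 0.06 at PND14 and 0.19 ± 0.05 at PND1. For Map2 it was −0.18 ± 0.06 (adjusted p = 0.0276), with −0.06 ± 0.05 at PND14 and 0.11 ± 0.04 at PND1. For Mapt it was 0.16 ± 0.06 (adjusted p = 0.0478), with 0.13 ± 0.04 at PND14 and −0.03 ± 0.03 at PND1. Nefh had the largest estimate, −0.39 ± 0.16, and did not pass (adjusted p = 0.103).

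These calls did not hold in every alternative, and each ID number left out took 6 libraries with it. The estimate for Mapt stayed between 0.15 and 0.19 without any 1 of the PND14 numbers, while its adjusted p moved across the threshold. Without ID number 4422, the only member called was Mapt, and Map1b was at −0.16 (adjusted p = 0.225) and Map2 at −0.12 (adjusted p = 0.216). Without ID number 4424 none was called, with Map1b at −0.17 (adjusted p = 0.216), Map2 at −0.15 (adjusted p = 0.131) and Mapt at 0.18 (adjusted p = 0.0855). Without number 4423 Mapt was at 0.15 (adjusted p = 0.139), and without 4425 also at 0.15 (adjusted p = 0.154). Without the PND1 libraries high in hindbrain markers the called members were Nefm (−0.32, adjusted p = 0.017) and Nefh (−0.49, adjusted p = 0.0252), and after GC and length correction they were Nefm (−0.37, adjusted p = 0.0471), Nefh (−0.52, adjusted p = 0.0409) and Ina. The morphine effect of 3-Tri minus that of PND14 was called for 0 of 9 members by edgeR and 0 by DESeq2, with 1 at an unadjusted p under 0.05. Of all genes, edgeR called 0.182% and DESeq2 called 74, with 2012 at an unadjusted p under 0.05.

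Within windows, some members varied together across libraries after the group means were removed. In all, 24 relations were computed, and p-values are from permutation tests adjusted over them. Nefl and Nefm correlated with r = 0.987 at PND1, 0.806 at PND14 and 0.955 in 3-Tri, with Spearman rho of 0.983, 0.784 and 0.932 (adjusted p = 4e-05, 0.00024 and 4e-05 for r). Nefl and Nefm share the exon stretch whose reads may not have been separated. Nefm and Nefh, which lie on different chromosomes, had r = 0.966, 0.611 and 0.86 in the same windows, with rho of 0.967, 0.598 and 0.876 (adjusted p = 4e-05, 0.006 and 4e-05 for r). Map1b and Map2 had r = 0.864, 0.873 and 0.818, with rho of 0.833, 0.887 and 0.765 (adjusted p = 4e-05, 6.86e-05 and 4e-05 for r). Without the 2 libraries farthest from the median of the first gene, r was 0.521 to 0.949 for Nefm and Nefh and 0.729 to 0.853 for Map1b and Map2. Map2 and Mapt gave no relation past the threshold, with r = 0.443, 0.413 and −0.02 (adjusted p = 0.0872, 0.147 and 0.957), nor rho of 0.354, 0.466 and −0.133.

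Vim and Nes, though both progenitor filament genes, had r = 0.223 at PND1, 0.441 at PND14 and −0.01 in 3-Tri, with rho of 0.238, 0.397 and 0.06. Only the PND14 value passed (adjusted p = 0.0271), and it did not pass without the 2 farthest libraries (r = 0.373, adjusted p = 0.0978). Nes and the endothelial marker mean had r = 0.69 in 3-Tri (adjusted p = 0.00596, rho = 0.598), against 0.37 at PND1 (adjusted p = 0.115, rho = 0.412) and 0.364 at PND14 (adjusted p = 0.138, rho = 0.303). Without the 2 farthest libraries it was 0.466 at PND1 (adjusted p = 0.0533), 0.563 at PND14 (adjusted p = 0.0359) and 0.565 in 3-Tri (adjusted p = 0.0359). Nefl and Ina had r = 0.524, 0.539 and 0.631 in PND1, PND14 and 3-Tri (rho of 0.462, 0.503 and 0.525), and none passed without the 2 farthest libraries (adjusted p = 0.0623, 0.0978 and 0.0533).

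Genes of the same machinery were taken from lists of 14 tubulins, 23 other microtubule-associated proteins and tubulin regulators, 12 other intermediate filaments and 13 kinases of tau and neurofilaments. In saline pups at PND14 against PND1, 8 of 14 tubulins rose and 5 fell, beside 84.9% of all genes called (median log2FC 0.19, against −0.02 over all genes). Tuba4a, an alpha-tubulin isotype, rose by 3.50 ± 0.04 on the log2 scale and Tubb4a, a beta-tubulin rich in oligodendrocytes, by 1.55, while Tubb2b, a beta-tubulin of migrating neurons, fell by 1.88. Of the other microtubule-associated genes 12 rose and 9 fell (median 0.21). Tppp, a tubulin polymerisation-promoting protein of oligodendrocytes, rose by 3.53 ± 0.05 and Map1a, the relative of Map1b in mature neurons, by 2.27, while Dcx, the doublecortin of migrating neurons, fell by 2.77. Tubulin genes are close paralogs, so the authors' counting could split or drop reads they share. Summed oligodendrocyte markers had a median of 4192 CPM at PND14 and 116 CPM at PND1 in the same pups.

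Of the other intermediate filament genes 6 rose and 5 fell (median 0.07). Gfap, the astrocyte filament, rose by 2.67 ± 0.07 and Synm (synemin) rose too (adjusted p = 1.36e-34), while the nuclear lamins Lmnb1 and Lmnb2 fell by 2.46 and 1.18. Of the kinase list 9 rose and 3 fell (median 0.30), led by Cdk5r2, an activator of CDK5, at 2.19 ± 0.05 (adjusted p = 2.64e-48, edgeR). Gsk3b, a kinase of tau, rose by 0.40.

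Morphine at PND1, over both codes, gave 0 tubulins higher and 5 lower of 14, beside 16.8% of all genes called (median −0.01, against 0.01 over all genes). Tuba1c was lower by the largest amount, with a log2FC of −0.48 (adjusted p = 0.00162, edgeR), and Tubb2b (−0.18), Tubb2a (−0.16) and Tubb3 (−0.12) were also called. Among the other microtubule-associated genes 2 were higher and 3 lower (median 0.05), with Map9 at 0.13, Map6d1 at 0.21, Map1s at −0.16 and Map7d1 at −0.11. The other intermediate filaments gave 0 higher and 2 lower (Lmnb2 at −0.21, Plec at −0.14), and the kinases 1 higher (Gsk3b at 0.12) and 2 lower (Mark4 at −0.15, Gsk3a at −0.11). Over genes, log2FC in this comparison followed GC content (r = −0.433). The lists of related genes and of markers are given without correction for it, and its part in their changes was not tested.

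At PND14 morphine gave 3 of 14 tubulins higher and 0 lower, beside 1.69% of all genes called (median 0.09, against 0.01 over all genes): Tubb2b at 0.26 (adjusted p = 0.00565, edgeR), Tubb5 at 0.15 and Tubb3 at 0.14. Of the other microtubule-associated genes Stmn2, a microtubule-destabilising protein of growing axons, was higher (0.15) and Tppp (−0.24) and Map6d1 (−0.20) were lower. Of the other intermediate filaments 0 of 12 were called and of the kinases 0 of 13, with 2 and 3 of them at an unadjusted p under 0.05. Of the 19636 genes tested, 3150 had an unadjusted p under 0.05. The difference between windows, PND14 minus PND1, was called positive for 6 tubulins and negative for 1, beside 13.3% of all genes called. Tuba1c was at 0.77, Tubb2b at 0.43, Tubb2a at 0.27 and Tubb3 at 0.26. Over genes this difference also followed GC content (r = 0.269), for which the lists were not corrected. In 3-Tri, over both codes, edgeR called 0 genes of the 4 lists. At an unadjusted p under 0.05 there were 0 tubulins, 3 other microtubule-associated genes, 1 other intermediate filament and 2 kinases, beside 963 of the 19730 genes tested.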

How the data were processed

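RNA was sequenced from 72 brain libraries, and symbols and coordinates came from GENCODE M21, which matched 55141 of 55401 gene IDs. The count table was deposited by the authors as raw, unnormalized read counts for each gene in each library, after trimming with Trim Galore 0.6.6, alignment with HISAT2 2.2.1 to mm10, removal of duplicate reads with Picard and counting with featureCounts 2.0.1 on GENCODE M25. Whether counting used strand is not given in the sources used here. Removing duplicates lowers the counts of the most abundant short genes most. Further tables deposited by the authors give their DESeq2 comparisons and hold fold changes, test statistics and p-values. Only the gene symbols of those deposited tables, text paired with the gene IDs, were used. Of the count columns, 0 had no sample.

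Counts were tested with edgeR 4.0.16 in R 4.3.3. Genes were kept by filterByExpr (minimum count 10, minimum total 15), TMM set the library scaling, and 1 quasi-likelihood fit per window took in its 4 groups, with F tests. Comparisons across windows used 1 fit of all 72 libraries. The 21 comparisons were morphine over saline per code and over both codes (their mean), F over M, the difference between codes, saline or morphine groups between windows, and differences of the morphine effect between windows. P-values were adjusted by Benjamini-Hochberg over all genes tested, and a gene was called at an adjusted p under 0.05. CPM is TMM-scaled, and each SE was the absolute log2FC divided by the root of F. Intervals of 95% are 1.96 SE either side. Relations between genes used log2 CPM with a prior count of 2, less the group mean, and two-sided tests of 100000 permutations. Total counts per library are given with the results. The lowest count of a member was 74 (Nes in replicate 4 of PND14 morphine F), so the shallow libraries add counting error to Nes and Vim. Scripts were tested on simulated data.

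By the rule for named genes, all 9 members were tested in every comparison, with values printed for those a result turned on, and up to 4 genes of each related list and 2 of each marker list were taken by smallest p. Marker lists are given mainly by counts and sums. The members, the lists, this rule and the tests were chosen with earlier results of these data known. Alternatives were DESeq2 1.42.0, edgeR with DESeq2's scaling, all genes without the low-count filter, the replicate number as a block, correction for GC content and length (lowess, span 0.3), both together, only the 2 groups compared, leaving out each PND1 library, each ID number, the low-depth libraries or those against their gender label (the other sex's gene over 25% of its median in that sex), and the ID number as a random effect in limma 3.58.1. The fits without libraries over 20 CPM of hindbrain markers, and with those markers as a covariate, were chosen after seeing the data. The replicate numbers were not taken to pair samples. No libraries of a group matched within counting noise, with a chi-square per gene of at least 1.64 over 183 pairs.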

Additional observations from a re-analysis of the deposited data

Results flagged for a closer look

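Of 108 sets of levels (9 genes in 12 groups), 8 held a library far from the others of its group by Dixon's test at the 95% level, and chance alone gives about 1 in 20. Replicate 10 of 3-Tri morphine F was apart for both Nefl (318 CPM) and Ina (244 CPM). Nefm was apart at 686 CPM in replicate 4 of PND14 saline F. Vim was apart in 3 PND1 groups, at 115 CPM in replicate 1 of morphine F, 158 CPM in replicate 5 of morphine M and 193 CPM in replicate 13 of saline M. Nes was apart at 54.6 CPM in replicate 14 of PND1 saline M. Mapt was apart at 940.3 CPM in replicate 1 of 3-Tri saline M, the library with the lowest total, 3113919 counts.

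The morphine effect of PND14 differed from that of PND1 by a test of the difference itself for Map1b (−0.22 on the log2 scale), Map2 (−0.18) and Mapt (0.16), each with the limits given in the report. Neither the ages nor the way morphine was given can be told apart in that difference, since both changed between the windows.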

How the results depend on the processing

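Across 369 alternatives, 337 stayed within 1.5 times the count given, 12 were higher and 20 lower. Nearly all were counts of members called, and 1 was the count of relations. Many of the 337 came from comparisons in which no member was called, such as all 34 for code F at PND1. For morphine at PND1, 23 of 34 stayed within the limit in code M and 22 of 33 over both codes. For the difference of the morphine effect between PND14 and PND1, 8 of 13 did. No log2FC of a called member reversed. The saline age comparison kept 9 of 9 members, or 8 where Map1b was lost, under all 11 alternatives run. For morphine at PND1 over both codes (2 called), the count was 1 without a filter on low counts, 1 with the hindbrain marker covariate and 0 without the libraries high in those markers. At PND1 in code M (1 called) it was 3 without the libraries against their gender label, and 0 with the block and GC correction together, without the hindbrain-high libraries or with the hindbrain covariate. Leaving out each PND1 library gave 0 to 3 in code M, 1 to 3 over both codes, and 0 in code F and in both comparisons of codes. At PND14 DESeq2 called 1 member in code M, and over both codes (0 called) it called 2, the GC and length correction 1, the fit without ID number 4422 1 and the random effect of the ID number 2. The difference of the morphine effect between PND14 and PND1 (3 called) gave 1 without the libraries against their gender label, 1 without ID number 4422 and 0 without 4424. Over all genes, DESeq2 called 1798 for F over M at PND1 (edgeR 1026), 203 for morphine in code M at PND14 (edgeR 55), 657 over both codes at PND14 (edgeR 332) and 74 for the morphine effect of 3-Tri minus that of PND14 (edgeR 40). The cause of these moves was not tested.

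Libraries of 1 number deviated together beyond r = 0.1 in 14 of 31 pairs (r from −0.44 to 0.548), and 5 pairs correlated best with their own number, so numbers were not taken as pairing. As a replicate block they raised the count at PND1 over both codes to 5 (Nefl, Nefm, Nefh, Map1b and Map2), or 4 with GC correction (Nefl, Nefm, Nefh and Ina). The count for the difference between PND14 and PND1 rose to 5, also 5 with GC correction. Without the block, 16.8% and 13.3% of all genes were called in these comparisons. Shares of all genes with the block are not given here, so these counts are not read as a result about the members.

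Litter, dissection and window were not separable here, 11 PND1 libraries had over 20 CPM of hindbrain markers, and 12 of 24 labels of 3-Tri went against the sex genes. The fitted SE of a member's morphine log2FC over both codes ran up to 0.18 (Nefh at PND1), so small effects were not detectable there.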
